A study of Mus musculus with 5 samples.

Results

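The cells described here are mesenchymal cells of the mouse penis at postnatal day 6 in which UMIs of Srd5a2, Sim1, Msmp, Ndnf, Bmp3 and Grik1 occurred together. A cell was a member when it held at least 1 UMI of 3 or more of these 6 genes and of fewer than 3 of Angpt2, Ccl19, Orm3, Pi15, Prlr and Stk32a, after cells with 500 to 6000 detected genes and at most 5% mitochondrial UMIs had been kept. The rule took 479 of 6806, 472 of 7107 and 326 of 5720 kept cells in penis libraries 1, 2 and 3, or 1277 of 19633 kept penis cells. It is built from measured values of these same cells, so the levels of its 12 genes are given as a description and were not tested.

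The study profiled single cells of 3 penis libraries and of 1 forelimb and 1 hindlimb library with the 10X Single Cell 3' v3.1 kit, and asked about androgen action and gene expression where bone forms. Per the methods, the penises came from 3 males at postnatal day 6 from more than 1 litter, the prepuce had been removed and the glans was kept, while the limbs were labelled as embryonic day 15. All animals were labelled C57BL/6N (the methods name C57BL/6J), and no transgene or treatment is named. Which animal gave which penis library is not labelled, so p-values measure the spread between these 3 libraries.

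Srd5a2 encodes the reductase that converts testosterone into dihydrotestosterone, the stronger androgen on which the male external genitalia depend, and the mesenchyme of the genital tubercle is where it is known to act. Sim1 is a transcription factor of the bHLH-PAS family, best known from the hypothalamus. Ndnf encodes a secreted factor first found to support neurons, Bmp3 an unusual BMP that opposes the signal of other BMPs, Grik1 a kainate receptor subunit and Msmp a small secreted microseminoprotein. In the canonical Wnt pathway, a Wnt ligand stabilises beta-catenin, R-spondins strengthen the signal at the receptor, and the targets Axin2, Nkd1, Nkd2, Apcdd1 and Notum in turn hold it back.

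The positions of the 6 genes in GRCm38, the assembly that mm10 stands for, follow the GENCODE annotation. Srd5a2 lies at chr17:74016955-74047916 (minus strand), Sim1 at chr10:50894754-50989152 (plus strand), Msmp at chr4:43583216-43584494 (minus strand), Ndnf at chr6:65671590-65712326 (plus strand), Bmp3 at chr5:98854415-98884396 (plus strand) and Grik1 at chr16:87895900-88290265 (minus strand). RefSeq promoter sequences (GRCm38.p6) matched 3 of the 6, and up to 250 bases before the RefSeq start, less any that GENCODE counts as exon, are shown for them because the rule joins these genes without saying what their upstream sequences share. The Srd5a2 and Msmp stretches end where the gene begins. The Sim1 stretch lies within the gene as GENCODE annotates it, in an intron of a transcript that starts further upstream than the RefSeq one. TGTTCT, a half-site of steroid receptors, is in capitals where it occurs on either strand.
Srd5a2 (chr17:74047917-74048110, minus strand): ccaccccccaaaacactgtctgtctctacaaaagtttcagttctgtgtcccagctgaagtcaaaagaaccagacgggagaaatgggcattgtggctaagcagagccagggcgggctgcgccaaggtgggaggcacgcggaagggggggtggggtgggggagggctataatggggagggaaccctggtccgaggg
Sim1 (chr10:50895401-50895472, plus strand): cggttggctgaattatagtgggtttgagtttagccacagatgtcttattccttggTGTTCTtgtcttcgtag
Msmp (chr4:43584495-43584744, minus strand): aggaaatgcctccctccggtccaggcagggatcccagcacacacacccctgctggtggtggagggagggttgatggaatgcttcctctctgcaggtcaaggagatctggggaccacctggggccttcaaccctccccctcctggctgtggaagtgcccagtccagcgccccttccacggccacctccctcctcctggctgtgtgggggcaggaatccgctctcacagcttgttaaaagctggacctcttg
In the full 250 bases before the RefSeq start, the half-site occurred once before Sim1, beginning 195 bases upstream, and not before Srd5a2 or Msmp. It occurred in 5284 of 32851 promoter windows of that length (16.1%), so a match in 1 of 3 carries little. The full element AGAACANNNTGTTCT and the TCF/LEF motif CTTTGAT, searched on both strands, were in none of the 3 windows. They occurred in 3 (0.00913%) and 1053 (3.21%) of all windows, and the half-site search finds every full element too. A match is a letter match only, and its absence from these windows bears on nothing outside them.

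Levels are given as UMIs per 1000000 UMIs of the same cells (CPM), from UMIs summed per library. Sim1 stood at 464, 505 and 520.3 CPM in the members of libraries 1, 2 and 3, against 64.5, 60.8 and 66.3 in all other kept penis cells. Srd5a2 stood at 226, 227 and 224 CPM against 51.8, 54.8 and 52.01, so both genes were also present well outside the members. The other 4 required genes had less elsewhere. Grik1 was at 378, 315 and 384 CPM in members and 4.59, 5.39 and 5.01 in other cells. Bmp3 was at 375, 360.3 and 354 against 6.15, 6.17 and 6.37, Ndnf at 429, 417 and 439.9 against 13.6, 12.3 and 12.95, and Msmp at 142, 121 and 127 against 8.80, 6.78 and 6.33. The member and other libraries did not overlap for any of these 6, which the rule fixes.

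A UMI of Sim1 was found in 91.5 ± 0.378% of members (mean ± SD, n = 3 libraries), of Srd5a2 in 71.6 ± 2.37%, of Ndnf in 65.2 ± 3.20%, of Bmp3 in 63.5 ± 0.0477%, of Grik1 in 50.1 ± 1.89% and of Msmp in 30.01 ± 0.483%. The shares were also read in cells outside the members with 5 or more white blood cell markers and fewer than 5 of 10 mesenchyme markers. These should lack the 6 genes and had median depths of 6138 to 7755 UMIs. Their shares ran from 0.45% to 4.55%, which leaving out members and cells with mesenchyme markers can lower. Members had a median of 10331, 9714 and 9029 UMIs. Thinned to 3000 UMIs per cell, 68.03% of members kept a Sim1 UMI and 18.9% an Msmp UMI, against 11.6% and 1.45% of the other cells. Of the 6 excluded genes, Angpt2 was at 12.2 ± 1.86 CPM in members and 406 ± 3.05 CPM in the cells chosen by the mirrored rule, which held 3 or more of the 6 excluded genes and fewer than 3 of the 6 required ones (3720 cells, called Angpt2 and Ccl19 gated cells below). Ccl19 was at 3.94 ± 2.92 against 208 ± 15.6 CPM, Orm3 at 10.7 ± 2.07 against 79.5 ± 6.69, Pi15 at 18.8 ± 3.58 against 339 ± 10.4, Prlr at 39.4 ± 11.4 against 163 ± 3.93 and Stk32a at 11.02 ± 2.67 against 189 ± 5.98. The 2 gates fix this contrast. In the other mesenchyme-gated cells defined below, Orm3 (2.26 ± 0.0967) and Prlr (23.5 ± 1.68) were lower than in members in each library. Stk32a (13.6 ± 1.39) was close, and Angpt2 (29.2 ± 3.39), Ccl19 (15.4 ± 0.974) and Pi15 (80.5 ± 3.08) were higher than in members.

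**Figure D1:**
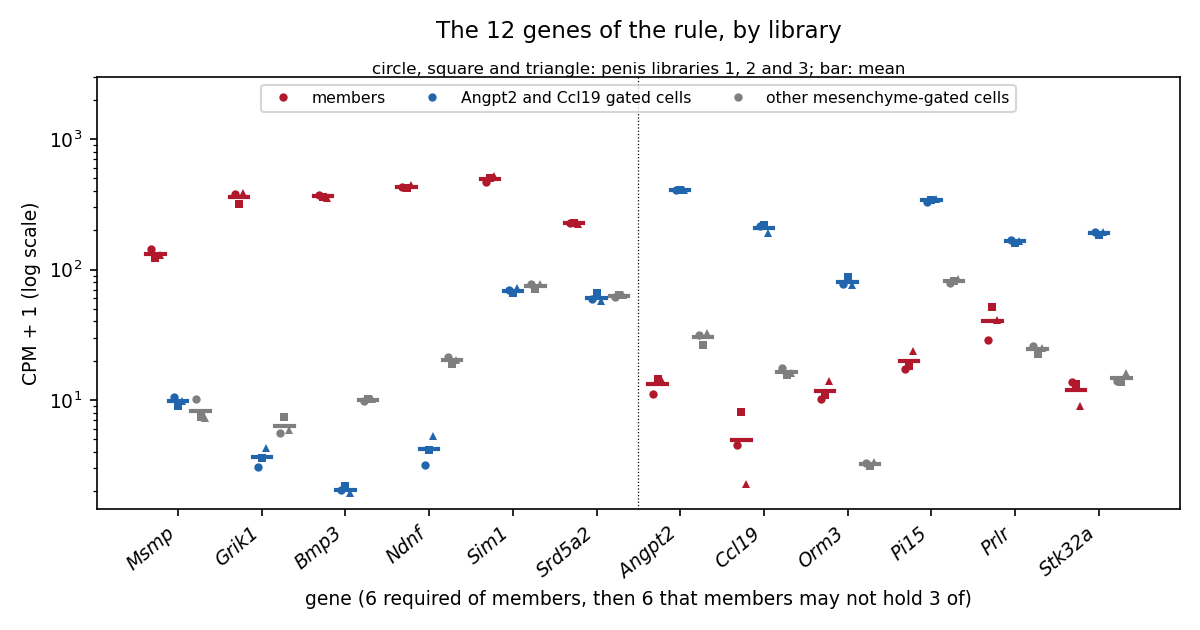
CPM plus 1, on a log axis, of the 12 genes of the rule in members, in the Angpt2 and Ccl19 gated cells and in other mesenchyme-gated penis cells, with 1 point per library and a bar at the mean. Members stand highest for the 6 required genes on the left, and Sim1 and Srd5a2 are the 2 of them that lie near 60 to 75 CPM in the other groups.

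The cutoff runs through a graded distribution. Of the cells with fewer than 3 excluded genes, 8570 had none of the 6 required genes, 4418 had 1, 1487 had 2, 643 had 3, 394 had 4, 198 had 5 and 42 had 6. The 1487 cells just outside the rule averaged 249 ± 23.3 CPM of Sim1, 166 ± 4.34 of Srd5a2 and 18.00 ± 5.24 of Grik1. The 643 just inside it averaged 462 ± 54.1, 224 ± 11.03 and 118 ± 23.8. A further 161 cells passed both gates and were counted as neither. Members made up 7.04% (95% exact binomial interval 6.44% to 7.67%), 6.64% (6.07% to 7.25%) and 5.70% (5.11% to 6.33%) of kept cells, a mean of 6.46% ± 0.688 (SD, n = 3), with intervals that cover counting error only. The share rests on the number of genes asked for and on depth. It was 3.21% when 4 of the 6 genes were asked for and 3.64% when cells were thinned to 3000 UMIs before the rule was applied. Thinning also left out the cells under 3000 UMIs, and the deeper cells that remained gave 7.08% at full depth. Put through the same rule, 31 of 16733 forelimb cells (0.185%) and 45 of 16461 hindlimb cells (0.273%) passed, from 1 library of each limb and without any test.

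Each of the 6 genes was also looked at in cells that held 3 or more of the other 5. Grik1 was then 35.2, 27.8 and 49.4 times its level in the other kept cells in libraries 1, 2 and 3. The ratio was 28.5, 26.3 and 28.7 for Bmp3 and 22.9, 21.1 and 24.6 for Ndnf. It was lower for Msmp, at 6.75, 7.72 and 7.95, and for Sim1, at 5.79, 6.52 and 5.72, and lowest for Srd5a2, at 3.07, 2.74 and 3.14. The 6 genes were chosen together, so these ratios describe how far each followed the rest.

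The label of mesenchyme held against markers. Of the members, 97.2% to 98.5% per library carried 5 or more of 10 mesenchyme markers (Twist1, Il11ra1, Prrx1, Mfap2, Col6a2, Fbln1, Cdh11, Col5a2, Col6a1 and Pdgfra), against 72.0% to 74.1% of all other kept cells. The summed level of the 10 was 6380 to 6475 CPM in members and 4330 to 4485 in the others. Cdh11 made the largest single difference, at 1400, 1351 and 1527 against 354, 359 and 390 CPM. Il11ra1 and Col5a2 were lower in members than in the others in each library, and Fbln1 was lower in library 3. The remaining markers of the list were higher in each library. In the mesenchyme outside both gates, which was chosen with these same markers, the summed level was 5636 to 5814 CPM. Compared with it, Twist1, Col6a2, Cdh11, Col6a1 and Pdgfra were higher in members in each library. Prrx1, Fbln1 and Col5a2 were lower in each library, and Il11ra1 and Mfap2 were higher in library 1 only. Lists for other cell types, counted as passed at 3 or more markers, were passed by few members. The ranges over libraries were 2.71% to 5.08% for keratinocytes, 0.847% to 1.88% for endothelium, 0.613% to 1.48% for white blood cells, 0.212% to 0.418% for glia and 0% to 0.307% for osteoblasts. They were 10.4% to 12.6% for chondrocytes, against 14.8% to 15.6% of the other cells and 22.7% to 23.8% of the mesenchyme outside both gates, and 4.60% to 9.19% for red blood cells, against 5.82% to 8.65%. They were 0.613% to 1.46% for pericytes and 1.53% to 5.30% for Pi16 fibroblasts, against 5.42% to 5.92% and 18.4% to 20.5% of the mesenchyme outside both gates. Summed levels in members and in that mesenchyme were 275 to 354 and 866 to 1010 CPM for the chondrocyte list, 177 to 241 and 652 to 672 for the Pi16 fibroblast list, 68.5 to 76.0 and 236 to 293 for the pericyte list and 27.7 to 125 and 294 to 402 for the osteoblast list. Within the chondrocyte list Col9a1 was higher in members in each library, at 108, 95.9 and 86.8 against 81.8, 78.3 and 85.0 CPM. Matn4 was higher in libraries 1 and 2, and the rest of that list was lower in each library. The summed keratinocyte level was 137 to 229 CPM in members and 927 to 1031 in the others. Smooth muscle and tendon lists stood otherwise. The smooth muscle list was passed by 2.97% to 4.80% of members and 5.02% to 5.86% of the others, but its summed level was 424 to 764 CPM in members, 314 to 345 in the others and 387 to 459 in the mesenchyme outside both gates. Of its 6 markers, Acta2, Myh11, Tagln, Cnn1 and Myocd were higher in members than in the others in each library and Des was lower. Myh11, the smooth muscle myosin heavy chain, was at 73.9, 70.3 and 141 CPM in members, highest in library 3, and at 35.02, 36.00 and 34.6 in the others. The tendon list was passed by 2.76% to 3.39% of members and 3.21% to 3.75% of the others, with a summed level of 193 to 213 against 136 to 155 CPM, and 199 to 231 in the mesenchyme outside both gates. Among its 5 markers Thbs4 was at 135, 134 and 128 against 13.5, 15.1 and 12.8 CPM, while Scx, Tnmd and Fmod were lower in members in each library. No marker of either list was at 0 in members. Members with markers of keratinocytes, endothelium, glia, white or red blood cells were left out in an alternative. No member barcode occurred in more than 1 library.

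Members were compared with 3 sets of cells within each library, with library as a block: all 18356 other kept penis cells, the 3720 Angpt2 and Ccl19 gated cells, and 9588 other mesenchyme-gated cells, which were in neither gate and carried 5 or more of the 10 mesenchyme markers. The 3 comparisons share the member sums, and the set of all other kept cells includes the other 2 sets. The comparisons are therefore not independent of each other. Genes were called at an adjusted p under 0.01 and a log2 fold-change past 1 in either direction (edgeR quasi-likelihood test, Benjamini-Hochberg over all genes tested), with the 12 rule genes left out. The rule genes were themselves known from clusters of these cells. A gene that moves with them therefore had to differ, and a call says that the difference repeated over 3 libraries, not that it is independent evidence of a cell type. In sums over cells, more cells with a transcript and more transcripts per cell cannot be told apart. Against other mesenchyme-gated cells, 609 of 16873 genes were higher (3.61%) and 1245 were lower (7.38%). The median mitochondrial share of UMIs was higher in members in each library, at 2.62%, 2.63% and 2.70% against 2.07%, 2.19% and 2.25% of other mesenchyme-gated cells, and its part in these counts was not tested. Against all other kept cells, 642 of 18571 were higher (3.46%) and 2189 lower (11.8%), and against the Angpt2 and Ccl19 gated cells 953 of 15351 were higher (6.21%) and 1582 lower (10.3%). Cells with 3 or more markers of the chondrocyte, Pi16 fibroblast, pericyte, osteoblast, smooth muscle or tendon list were also left out of both sides, an alternative chosen after seeing the data, which kept 1028 members and 4823 other mesenchyme-gated cells. Then 508 genes were higher and 1061 lower, of which 443 and 873 were calls of the full comparison. Of 172 calls made in the gene lists described here, 146 were kept, 19 missed the threshold and 7 genes were not tested. The values below are from the comparison with other mesenchyme-gated cells unless another is named.

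Of 209 genes that were called higher in members both there and against all other kept cells, in every library, and had a UMI in at least 20% of members, the 12 with the largest log2 fold-change were Hs3st6, Tac1, Shisal1, Ptpro, Pde11a, Rap1gap2, Inhbb, Unc5d, Col13a1, Dab1, Car12 and Gng4. Hs3st6, which adds sulphate to heparan sulphate chains, stood at 61.1, 41.6 and 49.9 CPM in members and 1.41, 0.944 and 1.11 in other mesenchyme-gated cells (log2 fold-change 5.41 ± 0.13, SE). Tac1, the precursor of the neuropeptide substance P, was at 182, 192 and 186 against 8.60, 8.44 and 5.59 CPM (4.57 ± 0.09). The members of each library lay far above every library of the other side for both, as they did for all 12. The 12 were chosen for the largest differences in 1 direction in every library, so this separation follows from the choice. Non-overlap alone is also common here, since it held for 52.6% of all genes tested. Shisal1 was at 78.9, 71.5 and 83.9 against 4.24, 4.18 and 5.37 CPM (4.05 ± 0.09). Pde11a, a phosphodiesterase of cyclic AMP and GMP, was at 80.7, 116 and 95.99 against 7.34, 7.64 and 7.05 (3.68 ± 0.09). Inhbb, the beta B subunit of activin and inhibin, was at 37.6, 30.5 and 32.7 against 3.24, 2.95 and 2.76 (3.45 ± 0.13). Its share of cells with a UMI was 25.1% of members and 2.38% of the other cells.

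Col13a1, a transmembrane collagen of cell junctions, was at 204, 179 and 229 CPM in members and 18.3, 17.1 and 22.02 in the other cells (3.38 ± 0.05), with a UMI in 69.1% of members. Unc5d, a netrin receptor, was at 186, 139.7 and 198 against 19.01, 12.6 and 16.7 (3.39 ± 0.06). Dab1, an adaptor of reelin signalling, was at 255, 236 and 314 against 26.3, 24.1 and 24.96 (3.36 ± 0.07). The log2 fold-changes of the other 4 were 3.98 ± 0.17 for Ptpro, a receptor tyrosine phosphatase, 3.54 ± 0.07 for Rap1gap2, which switches off the GTPase Rap1, 3.35 ± 0.10 for the carbonic anhydrase Car12 and 3.32 ± 0.15 for the G protein subunit Gng4. Adjusted p-values of the 12 (edgeR quasi-likelihood test) ran from 5.14e-16 to 3.31e-11. Against the Angpt2 and Ccl19 gated cells, 168 of the 209 genes were also called higher and none lower, beside 6.21% and 10.3% of all genes tested. The 209 were chosen as high in the same member sums, and all other kept cells include these gated cells. The overlap is therefore partly set by the choice. Hs3st6 (7.65 ± 0.20), Shisal1 (6.77 ± 0.14) and Tac1 (6.39 ± 0.09) had the largest differences of the 12 there.

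By the same rule 155 genes were lower, with a UMI in at least 20% of other mesenchyme-gated cells. The 12 with the largest difference were Igfbp6, Ly6a, Edil3, Ccn3, Hapln1, Agt, Sp9, Zfp804b, Dlg2, Lgi2, Ston2 and Dlk1. Igfbp6, a binding protein with a preference for IGF2, was at 17.3, 12.3 and 6.99 CPM in members and 127, 129.8 and 104 in the other cells (-3.29 ± 0.11). Ly6a, the surface antigen Sca-1, was at 16.7, 24.8 and 14.6 against 166, 151 and 159.7 (-3.09 ± 0.10). Both were also low in the Angpt2 and Ccl19 gated cells, at 9.87 and 26.1 CPM, and neither was called between members and those cells. Edil3, an extracellular matrix protein that binds integrins, was at 8.14, 14.7 and 14.9 against 101, 93.9 and 106 CPM (-3.06 ± 0.12). Agt, the precursor of angiotensin, was at 12.4, 16.8 and 9.54 against 96.5, 83.3 and 85.8 (-2.78 ± 0.11). These were lower than in the Angpt2 and Ccl19 gated cells too, by a log2 fold-change of -3.27 ± 0.10 and -3.41 ± 0.10. Dlk1, a membrane protein of progenitor cells, was at 159, 196 and 95.7 CPM in members, the lowest in library 3, and 879.7, 793 and 789.5 in the other cells (-2.49 ± 0.11). The adjusted p-values of the 12 (edgeR quasi-likelihood test) ran from 4.65e-14 to 1.19e-09. Of the 155 genes, 92 were also called lower against the Angpt2 and Ccl19 gated cells and 6 were called higher, beside 10.3% and 6.21% of all genes tested. This overlap too is partly set by the choice.

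**Figure D2:**
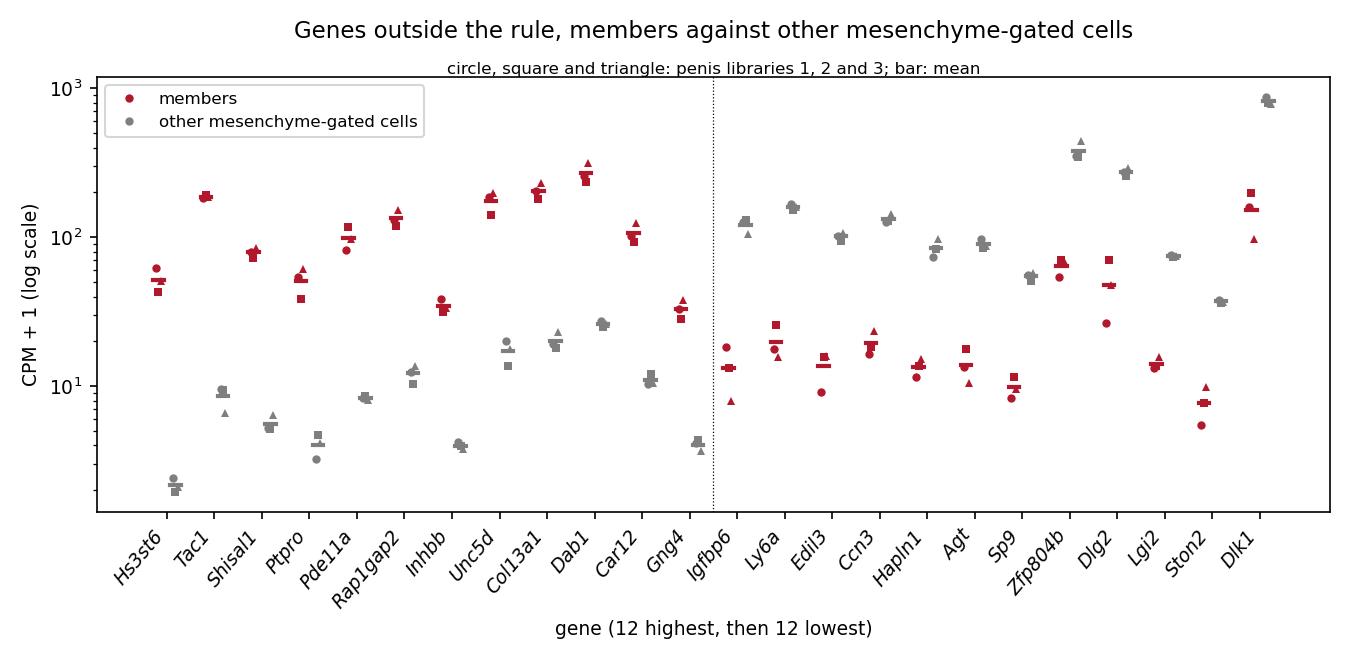
CPM plus 1, on a log axis, of the 12 highest and the 12 lowest genes outside the rule, in members and in other mesenchyme-gated penis cells of each library, with a bar at the mean. The 3 member libraries lie apart from the 3 others for each of the 24 genes, which were chosen for large differences in the same direction in every library.

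Of 40 tested genes of the Wnt and R-spondin list, 15 were higher in members and 6 lower, beside 3.61% and 7.38% of all genes tested, with a median log2 fold-change of 0.71 against -0.01 over all genes tested. Targets that restrain the pathway were among the higher genes. Notum, which strips the lipid from Wnt ligands, was at 74.6, 46.6 and 61.98 CPM in members and 2.09, 1.66 and 2.18 in other mesenchyme-gated cells (4.90 ± 0.12). Nkd2 was at 231, 199.9 and 251 against 27.5, 25.01 and 28.2 (3.03 ± 0.05) and Apcdd1 at 222, 207 and 234 against 33.8, 30.1 and 34.3 (2.71 ± 0.05). Axin2, the scaffold of the beta-catenin destruction complex, was at 79.7, 91.3 and 87.1 against 18.7, 18.8 and 20.9 (2.11 ± 0.07), and Nkd1 at 166, 133 and 160.2 against 31.2, 29.1 and 28.6 (2.32 ± 0.06). Each of these 5 was more than 2 log2 units above the other mesenchyme in the fit, with no overlap between libraries. The transcription factor Tcf7 was higher by 1.71 ± 0.13. Lef1 was not called (0.71 ± 0.10).

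Among the ligands, Wnt10a was at 39.9, 29.5 and 34.3 CPM in members and 0.975, 1.75 and 1.15 in the other mesenchyme (4.69 ± 0.20), and Wnt16 at 32.6, 40.6 and 32.7 against 9.06, 7.73 and 8.02 (2.05 ± 0.12). Wnt5a, which mostly signals outside the canonical pathway, was at 343, 360.1 and 396 against 167, 165 and 167 (1.09 ± 0.04), and Wnt6 was higher by 1.55 ± 0.11. Wnt2 was lower, at 14.7, 21.2 and 6.04 against 78.3, 73.3 and 69.6 CPM (-2.36 ± 0.15). Of the amplifiers, Rspo1 was at 104, 82.8 and 92.2 against 17.3, 15.7 and 16.2 (2.46 ± 0.07) and Rspo2 at 80.7, 45.8 and 80.1 against 12.3, 13.3 and 13.9 (2.32 ± 0.13), while Rspo3 was not called (0.61 ± 0.10). Secreted inhibitors were divided. Dkk2 (1.49 ± 0.04) and Wif1 (1.02 ± 0.05) were higher, and Frzb (-1.58 ± 0.22) and Sfrp4 (-2.27 ± 0.34) were lower at low levels. Without the cells of the connective tissue lists, Wif1 was higher by 3.21 ± 0.05 and Dkk2 by 1.01 ± 0.05. Among the receptors Fzd1 was higher (1.28 ± 0.05), and Fzd4 (-1.45 ± 0.17) and Fzd8 (-1.45 ± 0.13) were lower. Against the Angpt2 and Ccl19 gated cells, 17 of 36 tested genes were higher and 2 lower, with Notum (7.55 ± 0.19), Wnt10a (6.53 ± 0.27), Wif1 (5.24 ± 0.08) and Wnt16 (5.05 ± 0.17) the largest. Against all other kept cells 17 of 42 were higher and 8 lower. Of all genes tested, 6.21% were higher and 10.3% lower in the former comparison, and 3.46% and 11.8% in the latter. Over the alternatives that were run, 14 to 17 genes of the list were called higher and 5 to 8 lower against other mesenchyme-gated cells.

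**Figure D3:**
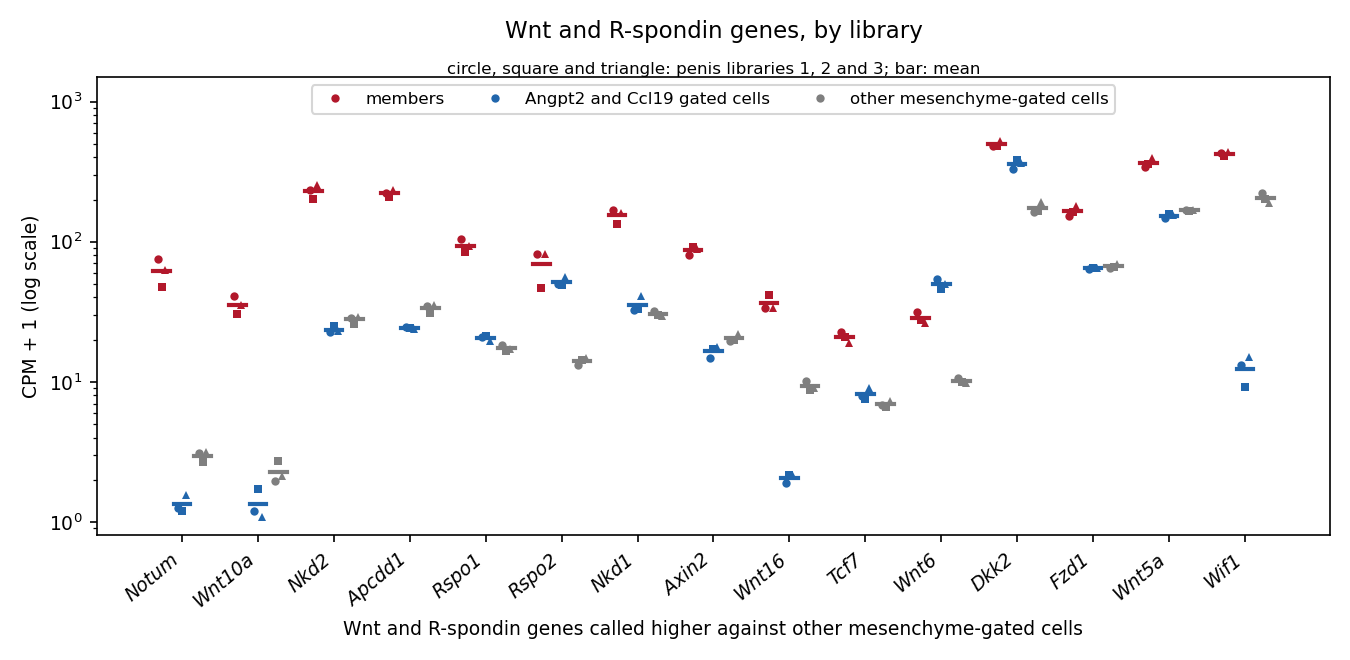
CPM plus 1, on a log axis, of the 15 Wnt and R-spondin genes called higher against other mesenchyme-gated cells, in members, in the Angpt2 and Ccl19 gated cells and in other mesenchyme-gated cells of each library, with a bar at the mean. Notum, Wnt10a, Wnt16 and Wif1 differ most from the Angpt2 and Ccl19 gated cells, and Wnt6 is the gene for which those cells stand above the members.

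The same 5 restraining targets (Notum, Nkd2, Apcdd1, Axin2 and Nkd1, grouped after their values were seen) were counted per cell after thinning to 3000 UMIs. A UMI of at least 1 of them was found in 79.3 ± 3.08% of members and in 23.1 ± 0.966% of other mesenchyme-gated cells (mean ± SD, n = 3), and of at least 2 of them in 48.9 ± 2.07% and 4.57 ± 0.362%. The share with at least 1 was 39.8 ± 1.13% in cells with exactly 2 of the 6 required genes, 70.9 ± 4.30% in those with 3, 84.8 ± 3.52% in those with 4 and 92.4 ± 6.31% in those with 5 or 6. The share rose from 2 to 3 and from 3 to 4 genes in every library. From 4 to 5 or 6 genes it rose in libraries 2 and 3 and went from 87.9% to 85.1% in library 1. Cells were sorted by the rule genes at full depth, and the targets alone were counted after thinning.

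Of 42 tested BMP and TGF-beta genes, 6 were higher and 6 lower (median log2 fold-change -0.06), beside 3.61% and 7.38% of all genes tested. The higher ones were ligands. Bmp7 was at 111, 85.4 and 95.03 CPM in members and 11.6, 9.30 and 10.1 in other mesenchyme-gated cells (3.19 ± 0.07), and Bmp2 at 175, 175 and 171 against 21.3, 23.00 and 24.2 (2.89 ± 0.06). Bmp4 was at 272, 240.3 and 249.5 against 80.8, 77.5 and 76.5 (1.66 ± 0.05), and Bmp6 (1.20 ± 0.06) and Tgfb2 (1.10 ± 0.05) passed by less, beside Inhbb above. The lower ones held extracellular antagonists, among them Grem1 at 20.2, 16.2 and 19.1 against 82.7, 86.8 and 88.9 CPM (-2.26 ± 0.08), Chrdl1 (-1.86 ± 0.16) and Fst (-1.57 ± 0.08), together with the ligands Bmp5 (-2.72 ± 0.16) and Tgfb3 (-1.10 ± 0.06). Grem1 was no longer called when cells with connective tissue markers were left out of both sides (-0.10 ± 0.22), and it stood the other way against the Angpt2 and Ccl19 gated cells, where members were higher (1.40 ± 0.20). Bmp3, also a BMP, is a rule gene and stands outside these counts.

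Patterning transcription factors differed in both directions, with 11 of 55 tested higher and 20 lower (median -0.15), beside 3.61% and 7.38% of all genes tested. Over the alternatives 7 to 13 were higher and 18 to 22 lower. By comparison with the Angpt2 and Ccl19 gated cells 10 of 53 were higher and 9 lower (median 0.15), beside 6.21% and 10.3% of all genes tested. Twist2, a bHLH factor of dermal and other mesenchyme, was at 259, 222 and 249 CPM in members and 67.3, 62.5 and 64.5 in other mesenchyme-gated cells (1.87 ± 0.05), and the homeobox gene Alx4 at 127, 121 and 149 against 41.4, 40.97 and 45.5 (1.59 ± 0.05). T-box genes went both ways. Tbx4 was at 267, 266 and 321 against 106, 101 and 113 (1.37 ± 0.05), and Tbx5 (1.15 ± 0.06) and Tbx3 (1.08 ± 0.05) were higher too. Tbx15 (-1.45) was lower, as was the hindlimb factor Pitx1 (-1.41). Without the cells of the connective tissue lists Tbx4 (0.97 ± 0.05) and Tbx3 (0.93 ± 0.05) were not called, while Tbx5, Tbx15 and Pitx1 were. Alx4 and Tbx5 were not called against the Angpt2 and Ccl19 gated cells (0.28 ± 0.05 and 0.40 ± 0.06). Twist2 (2.27 ± 0.05) and Tbx4 (1.24 ± 0.05) were. Ebf2, an early B-cell factor family member of mesenchymal and fat precursors, was at 0.582, 0 and 0.954 CPM in members and 16.4, 13.9 and 18.2 in the other mesenchyme (-5.15 ± 0.32). Dlx5, which acts in skeletal and genital development, was at 2.71, 4.24 and 4.77 against 30.8, 27.98 and 29.5 (-3.00 ± 0.16), and its neighbour Dlx6 was lower by -2.79 ± 0.17. Sox9, the master regulator of cartilage, was at 28.1, 35.9 and 38.8 against 118, 114 and 118 (-1.83 ± 0.08), and Ebf1 at 287, 252 and 221 against 963, 879.9 and 999 (-1.94 ± 0.06). The posterior Hox genes that mark the outgrowing tubercle were not called, with Hoxa13 at 0.34 ± 0.07 and Hoxd13 at -0.17 ± 0.06. Isl1, a factor of the early genital mesenchyme, was at 246, 235 and 242 against 200.4, 202 and 210.4 CPM (0.20 ± 0.04).

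Of 22 tested androgen and steroid genes 1 was higher and 3 were lower (median 0.06), beside 3.61% and 7.38% of all genes tested. The count of 1 in 22 is near the share of all genes. Nr3c2, the mineralocorticoid receptor, was the higher one, at 21.3, 30.5 and 30.8 CPM in members and 9.69, 9.01 and 14.1 in other mesenchyme-gated cells (1.32 ± 0.13). Srd5a1, the other testosterone reductase, was lower, at 2.91, 4.24 and 3.81 against 9.21, 8.98 and 7.45 (-1.30 ± 0.20). Fkbp5, a chaperone that steroid receptors induce, was at 31.02, 35.7 and 34.01 against 72.2, 67.3 and 77.9 (-1.14 ± 0.07), and Pgr, the progesterone receptor, was near the limit of detection on both sides (-2.98 ± 0.64). By comparison with the Angpt2 and Ccl19 gated cells, 1 of 21 androgen and steroid genes was higher and 6 were lower. The shares of all genes tested there were 6.21% and 10.3%. Of 10 tested partners and relatives of Sim1, none was higher against other mesenchyme-gated cells and Epas1 was lower (-1.97 ± 0.14). The dimer partners Arnt (0.35 ± 0.05) and Arnt2 (0.64 ± 0.11) were not called. Against the Angpt2 and Ccl19 gated cells 3 of 10 were higher, beside 6.21% of all genes tested, and Epas1 was lower. They were Ahr, the aryl hydrocarbon receptor (2.27 ± 0.17), and the PAS factors Npas3 (1.51 ± 0.06) and Npas2 (1.41 ± 0.10).

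In the retinoic acid list 4 of 17 tested genes were higher and 4 lower (median 0.14), beside 3.61% and 7.38% of all genes tested. Crabp1, a carrier of retinoic acid in the cytoplasm, was at 1009, 843 and 877 CPM in members and 103, 103 and 98.8 in the other mesenchyme (3.12 ± 0.05), and Stra6, a receptor that takes up retinol, at 41.9, 43.4 and 45.5 against 5.33, 5.12 and 4.65 (3.06 ± 0.11). Crabp2 (1.74 ± 0.05) and the degrading enzyme Cyp26b1 (1.29 ± 0.06) were also higher, and all 4 were called against the other 2 sets of cells too. The retinol carrier Rbp4 (-2.05 ± 0.17), the synthetic enzyme Aldh1a1 (-1.72 ± 0.16), Rarb (-1.31 ± 0.10) and Rxrg (-2.98 ± 0.80) were lower. Rxrg was among the genes not tested without the cells of the connective tissue lists. Of 21 tested FGF genes 5 were higher and 2 lower (median 0.59), beside 3.61% and 7.38% of all genes tested. Fgf9 was at 34.5, 34.3 and 48.6 against 8.58, 9.56 and 9.70 CPM (2.01 ± 0.11), Fgfr4 at 10.7, 11.1 and 7.31 against 2.29, 2.35 and 2.18 (2.06 ± 0.20), and the FGF-induced genes Etv4 (1.89 ± 0.18) and Dusp6 (1.08 ± 0.12) were higher with Kl (2.61 ± 0.38), while Fgf13 (-1.77 ± 0.15) and Fgf18 (-1.03 ± 0.11) were lower. Of 14 tested Hedgehog genes none was higher, 6 were lower and 8 were not called (median -0.13). Of all genes tested, 3.61% were higher and 7.38% lower. Against the Angpt2 and Ccl19 gated cells 1 of 12 Hedgehog genes was higher and 2 were lower, beside 6.21% and 10.3% of all genes tested. The target Gli1 was at 6.01, 7.47 and 5.40 CPM against 16.7, 16.4 and 19.3 (-1.47 ± 0.15). Ptch1, receptor and target at once, was at 16.7, 16.8 and 16.8 against 35.5, 35.7 and 37.4 (-1.15 ± 0.09), and Hhip was lower by -1.10 ± 0.14. Dhh and Ihh were lower too, and neither was tested without the cells of the connective tissue lists. No UMI of Ihh was found in members, which puts it at least 8.49-fold lower than its 1.92 CPM in the other cells, against a floor of 3 UMIs over all members.

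Of 45 tested guidance and neurotrophic genes 12 were higher and 10 lower (median 0.03), beside 3.61% and 7.38% of all genes tested. Ephb1, an ephrin receptor, was at 104, 91.7 and 106 CPM in members and 12.8, 10.4 and 12.4 in other mesenchyme-gated cells (3.04 ± 0.07), and Plxna4, a semaphorin receptor, at 88.99, 91.1 and 124 against 15.4, 14.9 and 15.8 (2.65 ± 0.08). Robo2, a receptor of Slit ligands, was at 1428, 1357 and 1672 against 237, 237 and 256 (2.56 ± 0.04), with a UMI in 93.1% of members. Epha7 was higher by 2.07 ± 0.06. Of factors that sensory and autonomic nerves depend on, Nrtn was at 119.6, 122 and 111 against 34.1, 32.2 and 30.7 (1.82 ± 0.06) and Ntf3 was higher (1.36 ± 0.08). Ntf3 was not called without the cells of the connective tissue lists (0.86 ± 0.09). The lower ones included Nell2 (-2.17 ± 0.27), Unc5c (-1.95 ± 0.06), Sema6d (-1.92 ± 0.12) and Sema3c (-1.34 ± 0.05). Against the Angpt2 and Ccl19 gated cells 20 of 45 guidance genes were higher and 7 lower (median 0.48), beside 6.21% and 10.3% of all genes tested. Of 20 tested glutamate receptor genes, to which the rule gene Grik1 is related, 5 were higher and 7 lower (median -0.18). The shares of all genes tested were 3.61% and 7.38%. Grin2b was at 45.2, 31.3 and 41.6 against 5.11, 5.44 and 6.02 CPM (2.79 ± 0.13), and the AMPA receptor genes Gria2 (1.49 ± 0.15) and Gria1 (1.43 ± 0.08) were higher, whereas Grin2a (-2.64 ± 0.28), Grm7 (-1.95 ± 0.07) and the kainate receptor gene Grik2 (-1.48 ± 0.18) were lower. Against the Angpt2 and Ccl19 gated cells 6 of 18 were higher and 4 lower (median 0.31), beside 6.21% and 10.3% of all genes tested.

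Of 40 tested small proteoglycans and matrix glycoproteins 1 was higher and 14 were lower (median -0.72), beside 3.61% and 7.38% of all genes tested. With cells of the connective tissue lists left out of both sides 1 was higher and 17 were lower. Tnc, which is made in remodelling and developing tissue, was the higher one, at 320.1, 325 and 347 CPM in members and 129.8, 127 and 137 in other mesenchyme-gated cells (1.29 ± 0.04). Aspn, an extracellular proteoglycan that binds TGF-beta, was at 88.02, 66.04 and 53.1 against 349, 394 and 352 (-2.42 ± 0.09), and decorin (Dcn), which binds collagen fibrils, at 1764, 1855 and 1275 against 5287, 5098 and 4823 (-1.69 ± 0.06). Prelp (-2.78 ± 0.21), Omd (-2.14 ± 0.14) and Fmod (-1.93 ± 0.08) were also lower. Part of this turned against the Angpt2 and Ccl19 gated cells, where 8 of the 40 were higher and 5 lower (median -0.20), although 5 to 13 were lower over the alternatives. Of all genes tested there, 6.21% were higher and 10.3% lower. There Aspn was higher in members (1.13 ± 0.09) and Dcn was not called (0.62 ± 0.05). Among 29 collagen genes 5 were higher and 8 lower (median -0.39), beside 3.61% and 7.38% of all genes tested. The balance turned against the Angpt2 and Ccl19 gated cells, with 11 higher and 5 lower (median 0.80), beside 6.21% and 10.3%. Col7a1, the collagen of anchoring fibrils under epithelia, was at 97.1, 90.7 and 105 against 16.8, 15.8 and 16.5 CPM (2.53 ± 0.07), beside Col13a1 above and Col26a1 (1.95 ± 0.05). Col8a1 (-1.82 ± 0.08), Col11a1 (-1.76 ± 0.06, or -0.40 ± 0.09 and not called without the cells of the connective tissue lists, of which it is a marker) and Col4a5 (-1.72 ± 0.06) were lower. Of 13 tested IGF genes none was higher, 6 were lower and 7 were not called (median -0.84). Of all genes tested, 3.61% were higher and 7.38% lower. Igf2 was at 124, 144 and 111 against 389, 421 and 387 (-1.70 ± 0.05) and its imprinted neighbour H19 at 133, 125 and 117 against 435, 477 and 443 (-1.89 ± 0.05). The next were Igf2bp1 (-2.19 ± 0.25), Igfbp5 (-1.61 ± 0.09) and Igfbp3 (-1.31 ± 0.05), beside Igfbp6 above.

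Of 16 tested chemokines and their receptors 3 were higher and 8 lower (median -1.20), beside 3.61% and 7.38% of all genes tested. Ackr4, a receptor that removes chemokines such as Ccl19 and Ccl21, was at 81.6, 76.3 and 76.3 CPM in members and 8.43, 9.21 and 7.91 in the other mesenchyme (3.15 ± 0.08). Cxcr4 was higher at a low level (1.95 ± 0.23), and Cxcl2 (1.39 ± 0.25) had a UMI in 0.906% of members. The lower ones included Ccl11 (-4.45 ± 0.37), Cxcl1 (-2.44 ± 0.14) and Cxcl12, at 86.5, 74.7 and 62.6 against 233, 233 and 229 CPM (-1.66 ± 0.06). The balance was less marked against the Angpt2 and Ccl19 gated cells, with 3 of 13 higher and 4 lower (median -0.37). The shares of all genes tested there were 6.21% and 10.3%. Of 14 stress and immediate early genes, which respond to dissociation, none was higher and 3 were lower, beside 3.61% and 7.38% of all genes tested. The 3 were Atf3 (-2.19 ± 0.07), Socs3 (-1.21 ± 0.06) and Egr1 (-1.15 ± 0.04). The median of the list was -0.81, and 3 to 7 genes were lower over the alternatives. None of 18 cell division genes was called against other mesenchyme (median 0.03), beside 3.61% of all genes tested called higher and 7.38% lower. Thinned to 3000 UMIs, 8.85% ± 0.355 of members had 3 or more of those 18 genes, against 7.99% ± 0.349 of other mesenchyme-gated cells, 5.23% ± 0.343 of the Angpt2 and Ccl19 gated cells and 8.64% ± 0.181 of all other kept cells (SD, n = 3). Unthinned, the share was 23.2%, 23.3% and 21.2% of members in libraries 1, 2 and 3 and 28.2%, 23.6% and 23.8% of the Angpt2 and Ccl19 gated cells, so the direction of that difference turned with thinning. The two-sided exact permutation p-values of the thinned shares over the 3 library pairs were 0.25, 0.25 and 0.75, and 0.25 is the smallest that 3 pairs allow. Cenpf (1.25 ± 0.10) and Hmmr (1.04 ± 0.17) were called higher against the Angpt2 and Ccl19 gated cells, 2 of 18 beside 6.21% of all genes tested.

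The members were not uniform. Of 638 members with a Grik1 UMI, 65.5% also had Bmp3, 72.3% Ndnf and 65.2% Srd5a2, beside mean shares of 63.5%, 65.2% and 71.6% over all members. Of 384 members with an Msmp UMI, 30.7% had Grik1, 47.9% Bmp3 and 50% Ndnf, while 88.5% had Sim1 and 79.2% Srd5a2. Since a member needs 3 of 6 genes, a cell without 1 of them has to hold more of the others, and these shares are partly set by the rule. Members with Msmp were therefore also looked at where they held 3 or more of the other 5 genes (207 cells), the condition that the 893 members without Msmp meet by definition. The split was made after the values were seen and was not tested.

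Rspo2 stood at 3.82, 5.19 and 8.33 CPM in members with Msmp in libraries 1, 2 and 3 and at 114, 64.2 and 112 in members without it. In the 207 cells it was at 7.11, 9.55 and 14.9 CPM, still below each library of the members without Msmp. In all members with Msmp it was also below the 12.3 to 13.9 CPM of other mesenchyme-gated cells, and Wnt16, at 3.18, 0 and 3.12 CPM, was below their 7.73 to 9.06. Both were above those cells in each library in members without Msmp. In the 207 cells Rspo2 was above those cells in library 3 only, at 14.9 against 13.9 CPM. Wnt16 was at 5.93, 0 and 5.57 CPM in the 207 cells and 45.5, 58.96 and 45.7 in members without Msmp, Wnt10a at 10.7, 15.5 and 14.9 against 52.98, 39.01 and 43.9, and Notum at 45.03, 21.5 and 33.4 against 95.1, 62.2 and 79.6. These 4 were lower in every library where Msmp was found. Wnt5a lay the other way, at 563, 497 and 531 against 271, 313 and 313 CPM, as did Alx4, at 178, 155 and 199 against 96.8, 104 and 107. Inhbb was at 59.3, 56.1 and 48.3 against 27.3, 23.5 and 23.3. The restraining targets went different ways. Nkd2 was higher with Msmp, at 351, 283 and 396 against 200.2, 178 and 207 CPM, and so was Apcdd1, at 307, 238 and 314 against 182, 207 and 189, while Notum was lower. Axin2 differed less, at 105, 99.1 and 130.1 against 78.1, 94.5 and 80.96 CPM, and Nkd1, at 209, 162 and 159.8 against 166, 134 and 169, overlapped between libraries. All 5 were found in both kinds of member. Srd5a2 was at 275, 240.0 and 253 against 202, 199 and 219 CPM.

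**Figure D4:**
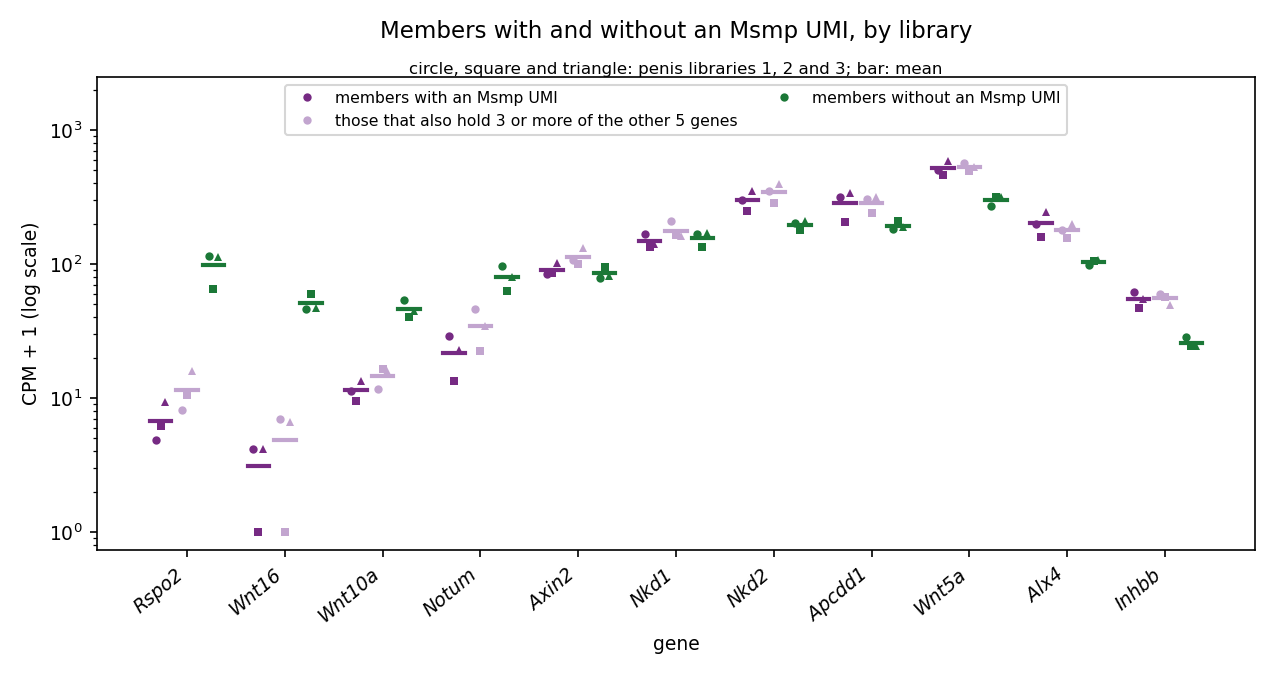
CPM plus 1, on a log axis, in members with an Msmp UMI, in those of them that held 3 or more of the other 5 genes, and in members without an Msmp UMI, by library with a bar at the mean. Rspo2, Wnt16, Wnt10a and Notum are higher without Msmp, Wnt5a, Alx4, Inhbb, Nkd2 and Apcdd1 are higher in the 207 cells with it, and Axin2 and Nkd1 lie close together.

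Levels outside the rule also changed with the number of required genes in a cell, here for genes already called against other mesenchyme-gated cells. A step from 2 to 3 genes therefore follows in part from that choice, and no test was run. Tac1 averaged 8.90 ± 4.96 CPM (mean ± SD, n = 3) in cells with exactly 2 of the 6, 42.8 ± 7.97 in members with 3, 264 ± 20.1 in members with 4 and 441 ± 19.5 in members with 5 or 6. Bmp2 averaged 30.8 ± 1.26, 92.8 ± 6.31, 244 ± 27.4 and 277 ± 16.5 CPM in the same order, and Robo2 513 ± 44.4, 1002 ± 118, 1757 ± 236 and 2312 ± 165. Dlk1 fell along it, from 630.1 ± 27.3 to 201 ± 83.9, 122 ± 34.5 and 60.9 ± 8.54. Dkk2 rose and then fell, at 314 ± 54.7, 547 ± 35.2, 497 ± 26.4 and 362 ± 9.69, and was highest in members with 3 of the genes.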

How the data were processed

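Single cells of 3 penis, 1 forelimb and 1 hindlimb library were measured. The authors dissociated the tissue, made libraries with the 10X 3' kit and counted UMIs with Cell Ranger 7.0.0 against mm10, and deposited these UMI counts, not normalized, for 8411 to 11397 barcodes per penis library, before the limits on genes and mitochondrial UMIs. Whether introns were counted is not given in the sources used here. The authors' limits of 500 to 6000 were read as genes detected per cell. Penis libraries held 51621930 to 68581547 UMIs in kept cells, and an interval or floor covers counting error only.

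Member genes and gene lists were chosen with earlier results of these data known. UMIs were summed per library and side, the 12 rule genes removed, and the sums fitted with edgeR 4.0.16 (R 4.3.3, TMM, filterByExpr, library as block), because both sides come from the same library. SEs were obtained by dividing the size of the log2 fold-change by the root of the F statistic. The script was tested on simulated data. Named genes were called in the same direction against all other and against other mesenchyme-gated cells, in 3 of 3 libraries, with a UMI in at least 20% of members (or of the other side if lower), and the 12 highest and 12 lowest were taken, plus members of 16 gene lists with the largest differences, some of which are not reported here. Duplicate gene symbols were read at their first entry. DESeq2 1.42.0 and other settings served as alternatives. Scrublet (scanpy 1.11.5) marked 0, 0 and 3 cells as doublets, so none were removed.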

Additional observations from a re-analysis of the deposited data

How the results depend on the processing

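Counts of called genes over all genes moved by less than 1.5 times under each alternative but 1. With DESeq2, 1050 genes were lower against the Angpt2 and Ccl19 gated cells in place of 1582, and 1045 of them were shared. DESeq2 also called fewer lower genes elsewhere. It called 872 in place of 1245 against other mesenchyme-gated cells (866 shared) and 1578 in place of 2189 against all other kept cells (1571 shared). The cause was not tested. Without replicate 1, 2 or 3, the genes higher and lower numbered 599 to 608 and 1824 to 2050 against all other kept cells, 869 to 964 and 1278 to 1585 against the Angpt2 and Ccl19 gated cells and 589 to 607 and 1098 to 1238 against other mesenchyme-gated cells. Both sides of a pair come from the same library, so the pairing is by construction, and with no replicate block the calls against other mesenchyme-gated cells numbered 615 higher and 1222 lower. The share of members moved from 6.46% to 3.21% with at least 4 of the 6 genes, to 3.64% with thinning to 3000 UMIs, which also dropped shallower cells, and to 5.61% with members that held markers of other cell types left out, and lay between 6.17% and 6.84% without 1 library. Against other mesenchyme-gated cells, leaving out those marker-bearing members gave 605 genes higher and 1349 lower. Cells with such markers stayed on the other side, and the kept cells were counted as before, so this alternative is one-sided. Without the 6% of cells with the highest doublet score in each library, an alternative chosen after seeing the data, 644 were higher and 1416 lower. That score marked 35 of 479, 34 of 472 and 20 of 326 members. Leaving out cells that Scrublet calls doublets was not run, since its automatic threshold called almost none. No direction reversed under the alternatives run among the 24 genes named first, which were chosen for the largest differences. Dlk1, not called against the Angpt2 and Ccl19 gated cells, passed there in 5 of them. Counts in gene lists moved more: cell division genes higher there ranged from 1 to 10, proteoglycan and matrix genes lower there from 5 to 13, and against other mesenchyme-gated cells stress genes lower from 3 to 7 and androgen and steroid genes higher from 1 to 3. With cells of the connective tissue lists left out of both sides, 508 genes were higher and 1061 lower, and some list genes were no longer called. Among them Wnt5a (1.09 to 0.92), Tbx3 (1.08 to 0.93), Tbx4 (1.37 to 0.97), Bmp6 (1.20 to 0.90), Gria1 (1.43 to 0.95) and Ntf3 (1.36 to 0.86) fell below the limit of 1 but stayed higher. Grem1 (-2.26 to -0.10) and Col11a1 (-1.76 to -0.40) lost most of their difference. Each library's depth and a sum over 3 libraries limit what can be called for genes near 1 CPM.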
